A study of Mus musculus with 5 samples.

Results

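A group of excitatory neurons in the hippocampus of newborn mice, defined by transcripts of Sema3c and Cntn2, was examined in single-cell RNA sequencing libraries of Trem2 knockout (KO) and wild-type (WT) pups. Members were the cells with at least 1 unique molecular identifier (UMI, a tag that counts captured RNA molecules) of Sema3c, at least 1 of Cntn2 and at least 2 of Neurod2 and Neurod6 together. They also had 0 UMIs of Prox1, Pou3f1, Gad1, Gad2, Eomes and Trp73. Of 30699 cells that passed the quality limits, 3948 were members, which is 12.9%. The rule used these 10 genes, so their levels in members are a description and support no comparison.

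The KO group was 2 libraries (replicates 2 and 3) of Trem2 -/- mice, labelled Trem2 knock-out, and the WT group was 3 libraries (replicates 1, 2 and 3) of Trem2 +/+ mice. All were made at postnatal day 1, each from the papain-dissociated hippocampi of 2 pups, in a droplet assay of transcript 3' ends. By the descriptions the pups of KO replicate 2 and WT replicate 2 were males and the other libraries pooled a female and a male, whereas the sex label lists both sexes throughout. Trem2 is a surface receptor of microglia, and the labels name no promoter or cell type that limits the deletion. The title of the study concerns microglial Trem2 and the energy metabolism of developing neurons. The labels do not say whether libraries share a litter, so p-values measure the spread between these pooled libraries.

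Excitatory neurons of the hippocampus arise from radial glia, in part through intermediate progenitors that carry Eomes. Newly born neurons transiently express early factors such as Neurod1, Sox11 and Sox4 and the migration-associated microtubule protein Dcx, and later take up genes of synapses and mature neurofilaments. Sema3c encodes a secreted semaphorin read by neuropilin and plexin receptors, and Cntn2 (TAG-1) encodes an adhesion molecule of the immunoglobulin family on growing axons. Neurod2 and Neurod6 are transcription factors of postmitotic excitatory neurons. Of the genes that had to be at 0, Prox1 marks dentate granule neurons, Gad1 and Gad2 make the transmitter GABA, and Trp73 marks Cajal-Retzius cells.

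The 5 libraries held 60024793 to 91205882 UMIs in 6512 to 10582 barcodes. There were 872 members in KO replicate 2 and 728 in KO replicate 3, against 677, 604 and 1067 in WT replicates 1, 2 and 3. Pairs of libraries shared between 0.184% and 0.350% of the barcodes of the smaller one, and no shared barcode was a member in both. Members had a median of 9629 UMIs and 3428.5 genes, with 5.01% of UMIs from mitochondrial genes. The Neurod condition alone was met by 14532 kept cells. Of 8223 cells with Sema3c, Cntn2 and the Neurod genes, 4275 carried at least 1 UMI of an excluded gene, most often Pou3f1 (2047 cells) or Prox1 (2038 cells).

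The label of these cells names Sema3c, Cntn2, Meis2, Grp and Kcnq3 as markers. Meis2, a homeobox transcription factor, averaged 279 ± 35.3 CPM (UMIs per 1000000 UMIs of the cell set) in members and 118 ± 24.4 CPM in the other excitatory cells (SD over n = 5 libraries each). These other excitatory cells were the 1568 cells that met the Neurod and zero conditions but lacked Sema3c or Cntn2. Grp, which encodes gastrin-releasing peptide, averaged 336 CPM in members, with 300.2 to 371 CPM in single libraries, and 135 ± 13.3 CPM in the other excitatory cells. Kcnq3, a subunit of the M-type potassium channel, averaged 174 ± 20.6 and 79.3 ± 8.76 CPM in the same order. All 3 genes were higher in members in 5 of 5 libraries, beside 29.2% of the 7093 genes that reached 20 CPM in either set. None of them was part of the rule. The rule was however drawn up from clusters of these same cells, so the 3 genes are no independent support for the label. The sets were drawn from the same measured cells, so these differences are given without a test.

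Outside that comparison the markers were not exclusive to members. Among excitatory cells with Pou3f1, Meis2 averaged 395 ± 49.5 CPM, and Eomes-positive cells had 368 ± 50.7 CPM. Both sets lay above the members within every library, although their ranges over libraries overlapped with that of members. Grp was highest in members, followed by the other excitatory cells and the Pou3f1-positive cells (111 ± 19.1 CPM). Within every library the other excitatory cells lay above the Pou3f1-positive cells, although the ranges over libraries overlapped. Kcnq3 was also highest in members, with 109 ± 12.5 CPM in Pou3f1-positive cells and 102 ± 27.8 CPM in Eomes-positive cells. In 2155 members (54.6%) all of Meis2, Grp and Kcnq3 were detected, and in 71 (1.80%) none was. Meis2 by itself thus did not set these cells apart. Of the general excitatory markers, the early cortical factor Tbr1 was at 30.7 ± 4.03 CPM in members and the vesicular glutamate transporter Slc17a6 at 30.8 ± 3.81 CPM, and the young-neuron gene Dcx at 883 ± 65.6 CPM.

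**Figure D1:**
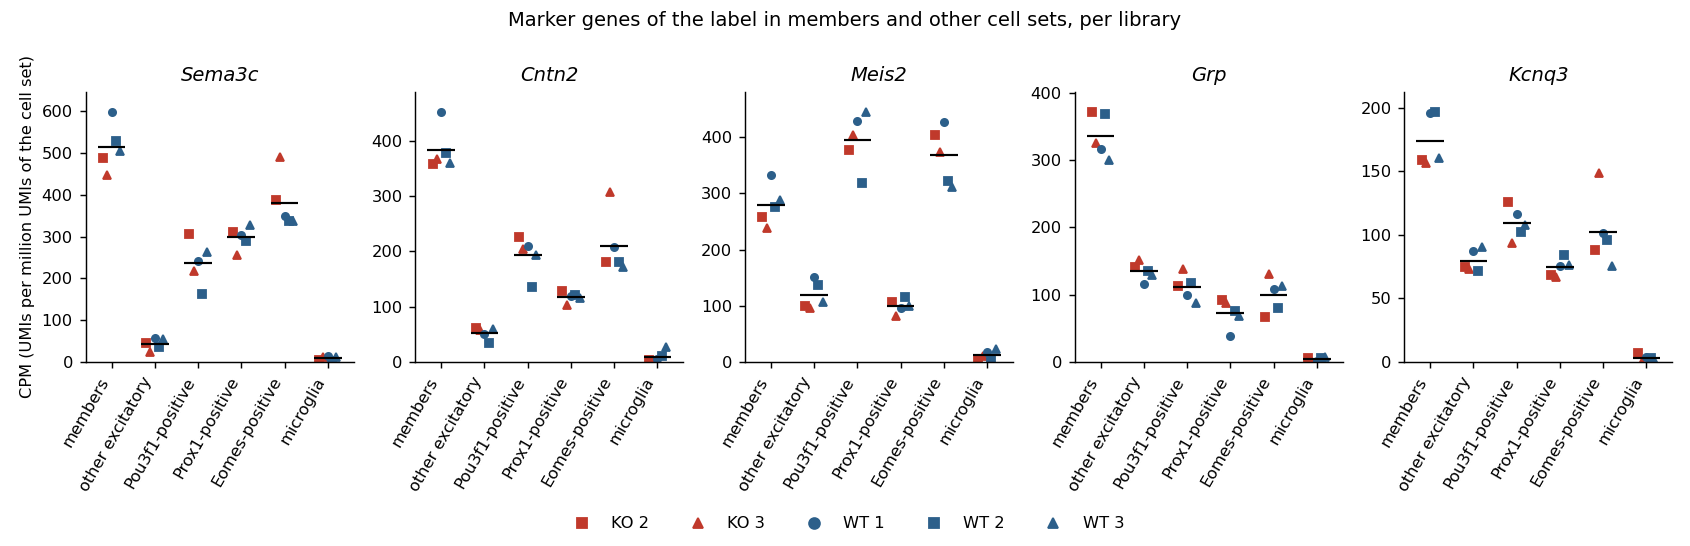
Level of the 5 marker genes of the label (y axis, CPM) in members and 5 other cell sets (x axis), with 1 point per library (red KO, blue WT) and a black bar for the mean of 5 libraries. Sema3c and Cntn2 are high in members by construction, while Meis2 reached 395 CPM in Pou3f1-positive cells against 279 CPM in members.

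Shares of cells with a UMI were compared after each cell was thinned to 4000 UMIs, which left out the shallower cells and kept 3844 members. Meis2 was detected in 59.7% of thinned members, 31.1% of thinned other excitatory cells and 4.90% of thinned microglia (cells with Csf1r and at least 5 C1q UMIs but no Neurod2 or Neurod6). The unthinned shares were 83.2%, 53.7% and 7.07%, at median depths of 9629, 10946.5 and 8499 UMIs. Grp was detected in 60.3% of thinned members against 30.3% of other excitatory cells, with 1.63% in microglia. Kcnq3 was detected in 51.8% of thinned members against 25.6% of other excitatory cells, with 0.408% in microglia. Microglia should lack these transcripts, so their shares were read as free-RNA background, and the 3 shares in members lay above them. The demand for no Neurod2 or Neurod6 can leave out microglia with more free RNA, so this background may be too low. Thinned endothelial cells (with Cldn5 and Flt1 but no Neurod2 or Neurod6) had shares of 3.14% for Meis2, 6.02% for Grp and 1.05% for Kcnq3. Sema3c and Cntn2 were detected in 3.67% and 2.86% of thinned microglia.

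At the edges of the rule the depth of the cells differed most at the Sema3c limit. The 390 members with exactly 1 Sema3c UMI had a median of 9989 UMIs and 159 CPM of Meis2, and the 552 cells that failed only for want of Sema3c had 19903.5 UMIs and 84.9 CPM of Meis2. The 455 members with exactly 1 Cntn2 UMI had a median of 7729 UMIs and 349 CPM of Meis2, and the 311 cells that failed only on Cntn2 had 7083 UMIs and 330 CPM. Grp was 251 CPM just inside and 143 CPM just outside the Sema3c limit, and 280 and 183 CPM at the Cntn2 limit. The 56 members with exactly 2 Neurod UMIs had a median of 6042 UMIs and 209 CPM of Grp, against 4897 UMIs and 86.4 CPM in 67 cells with 1. Meis2 was 442 CPM just inside and 227 CPM just outside this Neurod limit, and Kcnq3 199 and 113 CPM. Slc17a7, a vesicular glutamate transporter of mature excitatory neurons, was 106 CPM just inside and 167 CPM just outside the Sema3c limit.

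Genes of newborn neurons were higher in members than in the other excitatory cells. Of 15 listed genes 12 reached 20 CPM in either set, and all 12 were higher in members in 5 of 5 libraries, with a median log2 ratio of 1.29. Igfbpl1, which encodes a secreted protein related to the insulin-like growth factor binding proteins, averaged 1494 ± 149 CPM in members and 324 ± 50.9 CPM in the other excitatory cells (SD, n = 5 libraries each), a log2 ratio of 2.21 ± 0.19. Sox11, a transcription factor of newborn neurons, averaged 3132 ± 476 CPM in members and 1051 ± 166 CPM in the others. Neurod1 averaged 413 ± 53.4 CPM in members and 158 ± 24.1 CPM in the others. Of 5 measured genes of intermediate progenitors 3 were higher and 1 lower in 5 of 5 libraries, with the zinc-finger factor Insm1 at 76.6 CPM in members and 17.5 CPM in the others. Over all 7093 genes that reached 20 CPM, 29.2% were higher in members in 5 of 5 libraries and the median log2 ratio was -0.02. Members were not the cells with the most newborn-neuron transcripts. The summed list was 9656 ± 692 CPM in members, 13895 ± 985 CPM in Eomes-positive, 10802 ± 710 CPM in Prox1-positive, 7066 ± 790 CPM in Pou3f1-positive and 4144 ± 380 CPM in the other excitatory cells (SD, n = 5 libraries each).

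Genes of maturing neurons went mostly the other way. Of 22 listed genes 17 were lower in members in 5 of 5 libraries and 3 were higher, with a median log2 ratio of -0.54, beside 34.8% of all genes lower in 5 of 5. Nefl, a neurofilament subunit, averaged 30.3 CPM in members and 160 CPM in the other excitatory cells, a log2 ratio of -2.40 ± 0.17. Nrgn (neurogranin, a postsynaptic calmodulin-binding protein) averaged 256 and 940 CPM, and the kinase subunit Camk2a 45.8 and 166 CPM. Rbfox1 and Map2 were exceptions, at log2 ratios of 1.02 ± 0.15 and 0.39 ± 0.13, which were 0.27 and 0.20 when the rule was applied to thinned cells. The summed maturing list was 6599 ± 442 CPM in members, against 5156 ± 945 CPM in Prox1-positive and 10765 ± 705 CPM in the other excitatory cells. Slc17a7 averaged 46.7 ± 8.77 CPM in members and 161 ± 9.59 CPM in the others.

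Genes of growing neurites split. Of 18 listed genes 11 were higher and 5 lower in members in 5 of 5 libraries, at a median log2 ratio of 0.18. The shares over all measured genes were 29.2% higher and 34.8% lower. The tubulin Tubb2b averaged 6640 ± 725 CPM in members and 4836 ± 524 CPM in the others, the microtubule regulator Stmn1 5613 ± 207 and 4036 ± 446 CPM. Gap43, a protein of growth cones, was lower in members at 1763 against 2121 CPM, and so was the tubulin Tubb2a at 1222 ± 125 against 1671 ± 158 CPM.

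Among guidance and adhesion genes, which the rule touched only through Sema3c and Cntn2, members and the other cells each had the higher level of some. Of 15 measured genes of the semaphorin system (24 listed) 8 were higher and 3 lower in 5 of 5 libraries. Beside this and the counts below, 29.2% of all measured genes were higher and 34.8% lower in 5 of 5 libraries. The receptor Nrp1 averaged 799 CPM in members and 438 CPM in the others, and the membrane semaphorin Sema6d 124 and 44.8 CPM, while the receptor Plxnc1 was lower at 12.2 against 39.9 CPM. In the ephrin, Slit and netrin list 5 of 19 measured genes were higher and 10 lower in 5 of 5 libraries. The receptor Epha4 averaged 939 and 380 CPM, Ephb1 89.0 and 32.2 CPM, and the netrin receptor Dcc 198 and 102 CPM. Slit2 and Unc5c were lower in members, at log2 ratios of -1.75 ± 0.25 and -1.71 ± 0.27. Of 16 measured adhesion genes and Cntn2 partners 4 were higher and 7 lower in 5 of 5 libraries, among them Chl1 (489 and 343 CPM) and Cntn1 (72.9 and 208 CPM).

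Genes that mark hippocampal fields or cortical layers did not all point to 1 field. Of 6 measured genes of field CA3 3 were higher and 2 lower in 5 of 5 libraries, with Rnf182 at 543 against 320 CPM and Cpne4 at 103 against 175 CPM. The nuclear factor Zbtb20, present across the hippocampus, averaged 5963 CPM in members and 2053 CPM in the others. The deep-layer list had 9 of 10 measured genes lower in members, with Crym at 417 against 939 CPM, and the list of the subiculum and neighbouring cortex 6 of 8. Beside these counts, 29.2% of all measured genes were higher and 34.8% lower in 5 of 5 libraries.

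By the 2-fold criterion in every library, 50 genes (0.705% of 7093) were higher and 269 (3.79%) lower in members. The plot of single genes shows 25 higher and 15 lower ones, ranked by the library with the smallest ratio among genes of at least 50 CPM. These counts were not kept under thinning. When the rule was applied after thinning every cell to 4000 UMIs, 0 genes of 6830 were 2-fold higher and 130 were 2-fold lower. This step also moved cells with few Sema3c or Cntn2 UMIs into the other set. Of 97 named genes 92 kept their direction, among them Igfbpl1 at a log2 ratio of 1.02 and Nrgn at -2.67. Most of the 97 were named for their ratios in these same cells, so that count is no support. After thinning Igfbpl1 averaged 2139 CPM in members and 1058 CPM in the other cells, so depth and the change of sets cannot be told apart. The other excitatory cells were spread over clusters led by unlike genes, with 21.9% in the cluster of Cpne4 and Camk2a and 8.23% in one led by haemoglobin genes, and glial genes such as Hes5 were among those lower in members.

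**Figure D2:**
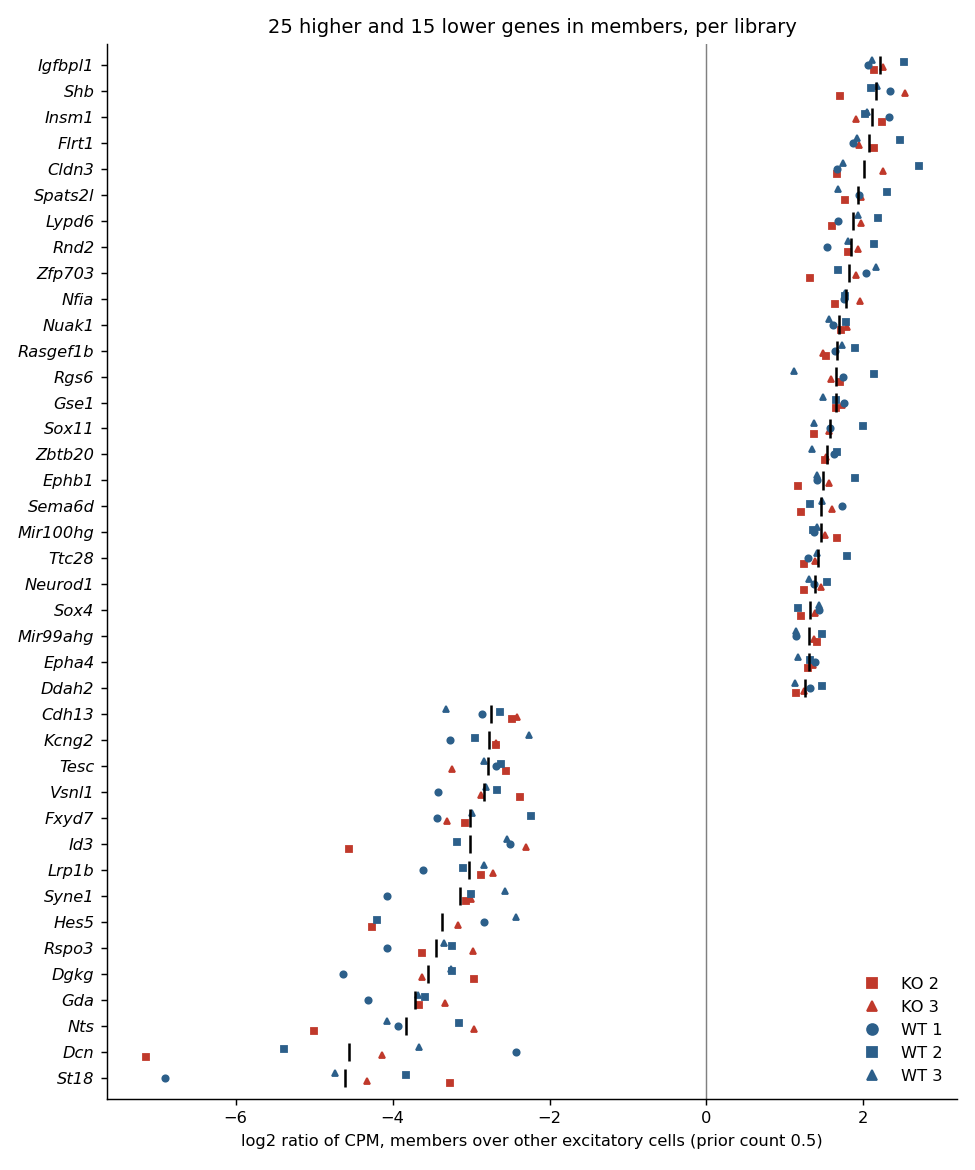
Log2 ratio of CPM in members over the other excitatory cells (x axis) for 40 genes (y axis), with 1 point per library (red KO, blue WT) and a black tick for the mean of 5 libraries. Igfbpl1 has the highest mean, 2.21, and every point of the 25 higher genes lies right of 0 and every point of the 15 lower genes left of it.

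Members were not uniform. All kept cells were clustered without the 10 rule genes, and 3785 members (95.9%) fell into 5 of 32 clusters, numbered here as the clustering did. Cluster 3 held 1591 members (40.3%), cluster 1 held 1319 (33.4%), cluster 13 held 457 (11.6%), cluster 8 held 285 (7.22%) and cluster 2 held 133 (3.37%). The other 163 members (4.13%) were scattered, among them 13 in a cluster led by the endothelial gene Cldn5 and 8 in one led by the microglial genes Spp1 and Tyrobp. At a higher clustering resolution the cluster with most members held 26.0% of them. Clusters are defined by expression, so the gene differences between them are descriptions.

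The 5 clusters differed in depth and in the balance of young and maturing genes. Cluster 2 had the highest summed level of the newborn-neuron list, 18052 ± 864 CPM (SD over 5 libraries), and the lowest of the maturing-neuron list, 2781 ± 465 CPM. Its members had 6688 UMIs in the median and 831 CPM of Neurod1, and its leading genes over all other cells were Tac2 and Mfap4. Cluster 1 followed with 13202 ± 577 CPM of the newborn list, then cluster 3 with 10374 ± 612 and cluster 8 with 10210 ± 822 CPM, which did not differ beyond their spread. Cluster 13 was lowest, at 5752 ± 212 CPM, and had the most maturing-neuron transcripts, 9732 ± 367 CPM, with a median of 26124 UMIs per member.

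The markers of the label were distributed unevenly over these clusters. Meis2 averaged 645 ± 52.1 CPM in cluster 1, 638 ± 150 in cluster 2 and 554 ± 78.0 in cluster 8, but 162 ± 18.0 in cluster 3 and 85.9 ± 9.53 CPM in cluster 13. Grp was highest in cluster 3 at 461 ± 57.9 CPM, then 364 ± 51.7 in cluster 1, and lowest in cluster 2 at 38.4 ± 11.9 CPM. Kcnq3 was highest in cluster 1 at 322 ± 18.1 CPM and lowest in cluster 13 at 59.5 ± 6.06 CPM. Cluster 8 stood apart by Cck, a neuropeptide gene, at 2541 ± 378 CPM, and by Bcl11b, a transcription factor of CA1 and deep cortical neurons, at 526 ± 50.2 CPM, against at most 313 and 188 CPM in the other 4 clusters. Meis2 and Grp were thus both high in cluster 1, while cluster 3 had high Grp with low Meis2.

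**Figure D3:**
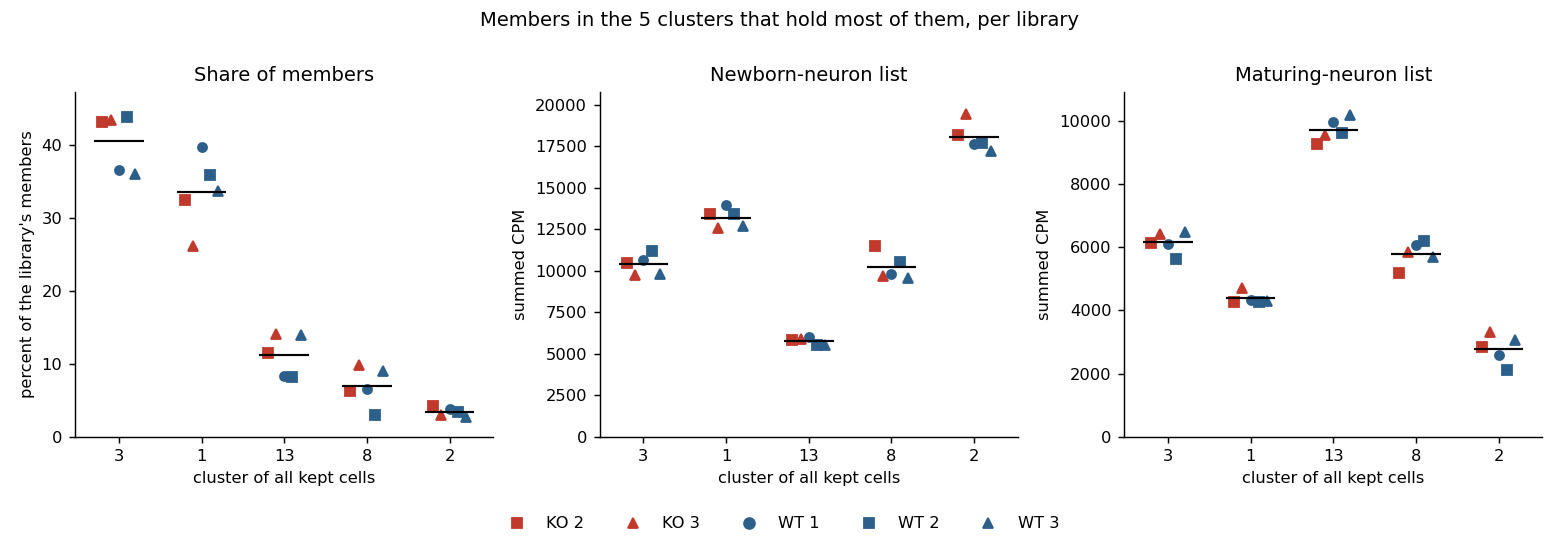
Members in the 5 clusters that hold most of them, as percent of each library's members (left) and as summed CPM of the newborn-neuron list (middle) and the maturing-neuron list (right), with 1 point per library (red KO, blue WT) and a black bar for the mean. Cluster 2 is highest for the newborn list at 18052 CPM and cluster 13 for the maturing list at 9732 CPM.

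Trem2 (ENSMUSG00000023992, chromosome 17, 48346401 to 48354147, plus strand, mm10) was checked first. In microglia it was at 36.7 and 87.6 CPM in the KO libraries, against 1088, 1165 and 581 CPM in the WT libraries. These sets were small, with 51 and 17 microglia in KO replicates 2 and 3, against 133, 54 and 42 in WT replicates 1, 2 and 3. In members 1 Trem2 UMI was counted in KO libraries and 112 in WT libraries, a ratio of 0.0115 with an exact 95% counting interval of 0.000289 to 0.0654. The interval covers counting error only and takes the UMIs as independent. In WT replicates 1, 2 and 3 the 5 members with the most UMIs of the microglial list held 84.5%, 93.7% and 78.5% of them. Without doublets, or without the 85 members that held 5 or more UMIs of another type's list, Trem2 fell below the count filter. The Trem2 UMIs of members are thus not read as expression by these neurons. No label says which exons were removed, and reads from an undeleted 3' end would not show the deletion.

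The share of members among kept cells did not overlap between genotypes. It was 15.6% and 13.2% in KO replicates 2 and 3, against 10.6%, 12.8% and 12.5% in WT replicates 1, 2 and 3. The exact two-sided permutation test gave p = 0.1, the smallest that 10 assignments of 5 libraries allow. The difference was 2.40 percentage points at the mitochondrial limit of 15% and 0.190 at a limit of 5%, where the exact permutation p was 1. Without KO replicate 2 it was 1.23 points. Members made up 28.4% and 26.1% of all kept cells with at least 2 UMIs of Neurod2 and Neurod6 together in KO libraries, against 27.1%, 28.1% and 26.5% in WT libraries (exact permutation p = 1). Among excitatory cells with the same exclusions their share was 74.3% and 68.2% in KO libraries, against 71.5%, 69.6% and 73.1% in WT libraries (exact permutation p = 0.9). After thinning to 4000 UMIs it was 52.8% and 47.6% in KO libraries, against 54.7%, 52.4% and 52.0% in WT libraries (exact permutation p = 0.4). With excitatory cells as the denominator the KO and WT shares thus overlapped in all 3 counts.

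The median depth of members did not overlap either. It was 9781 and 11705 UMIs in KO replicates 2 and 3, against 8805, 9579.5 and 8841 in WT replicates 1, 2 and 3, and the median genes per cell 3428 and 3844.5, against 3237, 3382 and 3259. Both measures were higher in both KO libraries (exact permutation p = 0.1 each, the smallest possible). Without KO replicate 3 the difference in median UMIs was 706, and 1668 with it. Thinned to 4000 UMIs, members had 1949 and 1971 genes in KO libraries, against 1969, 1954 and 1987 in WT libraries (exact permutation p = 0.5), and the groups overlapped. The other excitatory cells had 13558 and 11380.5 UMIs in KO libraries, against 10381, 9218 and 11347.5 in WT libraries (exact permutation p = 0.2). RNA content per cell and capture per library cannot be told apart here.

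Cluster 3 was the largest in every library except WT replicate 1, where cluster 1 was. Cluster 1 held 32.5% and 26.1% of members in KO replicates 2 and 3, against 39.7%, 35.9% and 33.7% in WT replicates 1, 2 and 3, without overlap (exact permutation p = 0.1, the smallest possible). Cluster 3 held 43.2% and 43.4% in KO libraries, against 36.6%, 43.9% and 36.1% in WT libraries (exact permutation p = 0.4). The shares of clusters 13, 8 and 2 overlapped between genotypes. Cluster 1 is 1 of the 3 clusters with high Meis2 and has a median of 7334 UMIs. The markers were therefore also fitted within single clusters.

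Gene expression in members was compared on counts summed per library with edgeR's quasi-likelihood test. At an adjusted threshold of 0.05 (Benjamini-Hochberg) 0 of 13485 genes (0.0%) passed, while 211 (1.56%) had a higher and 431 (3.2%) a lower level in KO members at an unadjusted p below 0.05. DESeq2 called 14 genes and edgeR without doublets 19. Without KO replicate 3 edgeR called 48, each of them lower in KO. Both KO libraries lay above all 3 WT libraries for 1090 genes (8.08%) and below them for 1720 (12.8%). The label markers outside the rule (Meis2, Grp and Kcnq3) did not pass. Meis2 was at 259 and 239 CPM in KO libraries, against 333, 276 and 288 CPM in WT libraries, without overlap, which is -0.23 on the log2 scale (SE 0.106, edgeR adjusted p = 0.993). Kcnq3 was at 159 and 156 CPM in KO libraries, against 196, 196 and 160 CPM in WT libraries, with no overlap and a log2 fold change of -0.19. Grp overlapped, at 0.11. Sema3c and Cntn2 chose the cells, and their levels are given only as a description. Sema3c was at 489 and 448 CPM in KO libraries, against 598, 530 and 505 CPM in WT libraries, and Cntn2 at 357 and 367 CPM in KO libraries, against 451, 378 and 359 CPM in WT libraries. Within cluster 1 alone Meis2 was at -0.13 and within cluster 3 alone at -0.14.

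**Figure D4:**
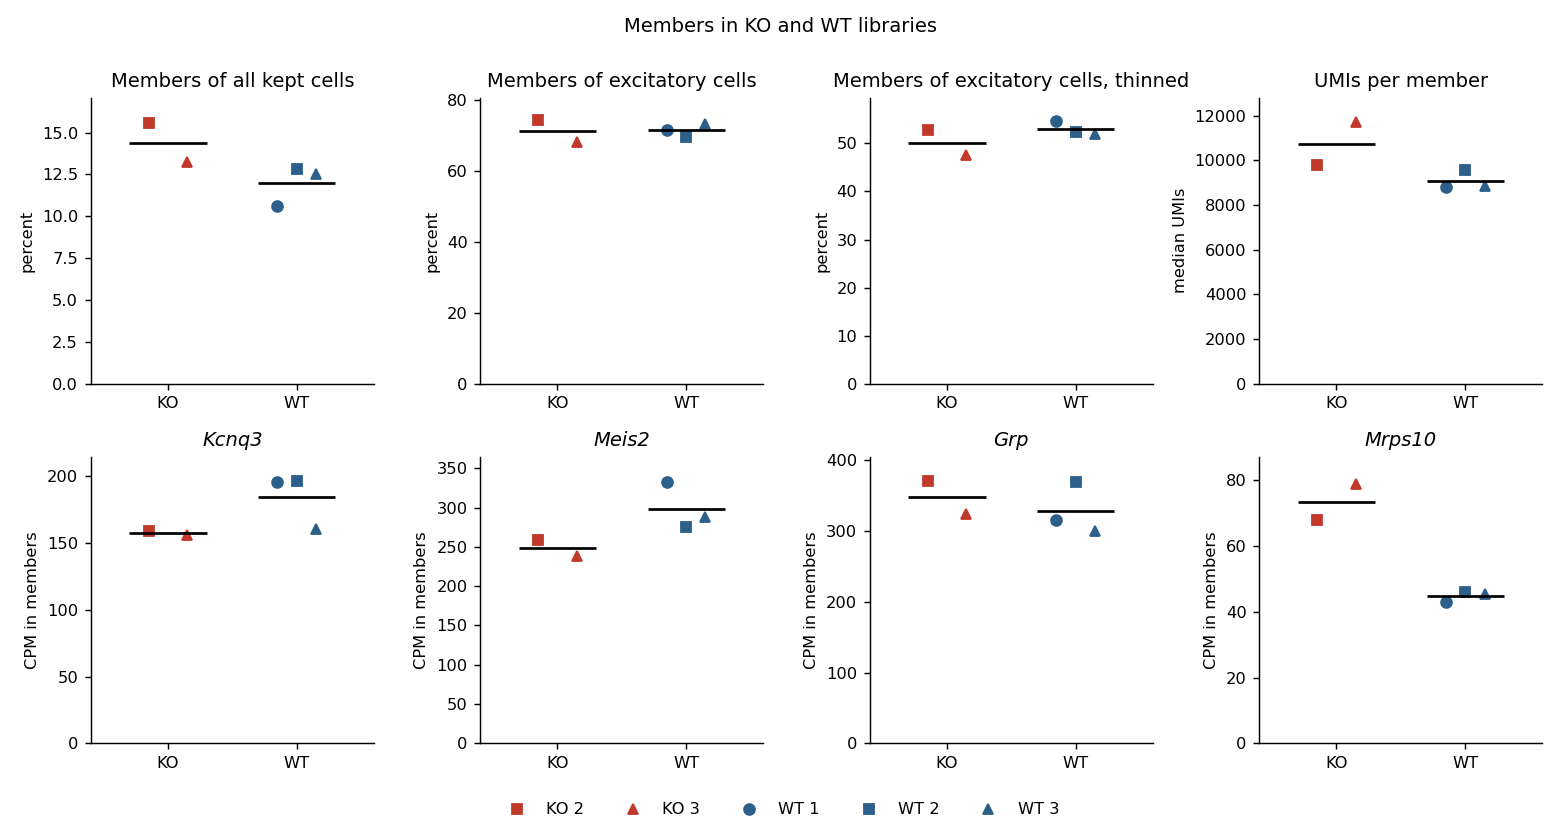
Members in KO (left, red) and WT (right, blue) libraries, as shares of cells and median UMIs (top) and as CPM of 4 genes (bottom), with 1 point per library and a black bar for the group mean. The KO and WT points overlap for the 2 shares of excitatory cells and for Grp, and not for the share of all kept cells, the median UMIs, Kcnq3, Meis2 and Mrps10, where KO libraries had 68.0 and 78.8 CPM and WT libraries 42.9 to 46.1 CPM.

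Among genes higher in KO members Mrps10 had the smallest p (ENSMUSG00000034729, chromosome 17, 47368887 to 47381417, plus strand, mm10). It encodes a protein of the small subunit of mitochondrial ribosomes. It was at 68.0 and 78.8 CPM in KO libraries, against 42.9, 46.1 and 45.5 CPM in WT libraries, which is 0.74 on the log2 scale (SE 0.104, edgeR adjusted p = 0.205). Both KO libraries lay above all WT libraries. It passed with DESeq2 (adjusted p = 0.00184), with edgeR without doublets (adjusted p = 0.0260) and with edgeR after adding the count of males per pool to the model (adjusted p = 0.0388). The other excitatory cells showed a log2 fold change of 0.79 (SE 0.132), and the difference between the effects was -0.06 (SE 0.112, edgeR adjusted p = 0.990). The following genes were higher in KO libraries without overlap and did not pass. Cirbp, a cold-inducible RNA-binding protein, was at 558 and 562 CPM in KO libraries, against 463, 436 and 463 CPM in WT libraries (log2 fold change 0.33). Atf4, a transcription factor of the integrated stress response, was at 98.7 and 109 CPM in KO libraries, against 84.1, 80.2 and 82.4 CPM in WT libraries (0.36). Matk, Deaf1, Jakmip1, Galnt14 and Sdk1 were between 0.39 and 0.62. Among the other 13 tested genes of the stress response list Chac1 was at 1.19 (SE 0.414) on 0.819 to 3.45 CPM and Asns at 0.33, and 9 of 14 lay below 0.

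The list of neurite growth genes was above 0 in 17 of 18 genes, with a median log2 fold change of 0.12, beside 48.9% of all genes above 0 and a median of -0.0050. None passed, and 4 of the 18 lay above all WT libraries in both KO libraries, beside 8.08% of all genes. Tubb2a was at 1426 and 1253 CPM in KO libraries, against 1124, 1144 and 1162 CPM in WT libraries (log2 fold change 0.26, SE 0.087). Tubb3 and Map1b were at 0.18 and 0.12 without overlap. The summed list was 41439 and 40139 CPM in KO libraries, against 38377, 38082 and 39595 CPM in WT libraries. It did not overlap between genotypes in the Pou3f1-positive and Prox1-positive excitatory cells either. It did overlap in the other excitatory cells, at 36595 and 35098 CPM in KO libraries, against 35012, 30896 and 36795 CPM in WT libraries, and in the Eomes-positive cells. Within single clusters the sum in members also overlapped between genotypes. In cluster 3 it was 42704 and 41814 CPM in KO libraries, against 40963, 40726 and 41926 CPM in WT libraries. The same held in clusters 1, 13, 8 and 2, and the part of the cluster shares in the list's difference was not tested. The newborn list had 7 genes above and 8 below 0 at a median of -0.01, and Neurod1 was at 378 and 351 CPM in KO libraries, against 492, 418 and 425 CPM in WT libraries (-0.26). Maturing genes split 11 and 11. Meg3, a long noncoding RNA, was at 1403 and 1767 CPM in KO libraries, against 1187, 1335 and 1297 CPM in WT libraries (0.34, SE 0.103; 0.19 without KO replicate 3), and the glutamate receptor subunit Grin2a at 0.36.

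Energy metabolism, the theme of the study's title, had no gene past the test in members (0 of 36, 0 of 38 and 0 of 13 genes in the lists of the respiratory chain). Over all genes 0 of 13485 passed, so this count is not particular to these lists. Of 36 nuclear genes of complex I 21 were above and 15 below 0, with a median log2 fold change of 0.03. Of all genes 48.9% were above and 51.1% below 0. Ndufs3 was at 157 and 156 CPM in KO libraries, against 138, 136 and 145 CPM in WT libraries (0.19), and Ndufa1 at 79.7 and 92.3 CPM in KO libraries, against 107, 100 and 106 CPM in WT libraries (-0.25). The 38 nuclear genes of complexes II to V had a median of -0.01. The 13 mitochondrially encoded genes had a median of 0.15 with 8 above 0, and their summed level overlapped, at 62968 and 52462 CPM in KO libraries, against 49531, 62674 and 40663 CPM in WT libraries. Glycolysis, the tricarboxylic acid cycle and mitochondrial biogenesis had medians of 0.03, 0.06 and 0.04. The summed list of the tricarboxylic acid cycle was at 1416 and 1419 CPM in KO libraries, against 1415, 1351 and 1402 CPM in WT libraries. Its groups did not overlap, but the lower KO and the highest WT value were nearly equal. The other 2 sums overlapped.

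The list of upper-layer and callosal genes was below 0 in 11 of 12 genes, beside 51.1% of all genes, with a median of -0.22 and 0 passing. Ptn, which encodes the growth factor pleiotrophin, was at 78.2 and 104 CPM in KO libraries, against 204, 149 and 141 CPM in WT libraries, which is -0.83 on the log2 scale (SE 0.170, edgeR adjusted p = 0.623). Pou3f2 and Pou3f3, transcription factors of the POU family, were at -0.64 and -0.33, and Cux1 at -0.40, all without overlap. Ptn is also a transcript of radial glia. Of the radial glia and astrocyte list 11 of 13 genes were below 0 (median -0.43), 9 of them below all WT libraries, beside 12.8% of all genes. Slc1a3, a glial glutamate transporter, was at 20.8 and 23.1 CPM in KO libraries, against 54.6, 44.8 and 30.7 CPM in WT libraries (-0.95, SE 0.218), Fabp7 at -0.96 and Hes5 at -1.54.

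Transcripts listed for several other cell types were at lower levels in KO members. The summed lists of radial glia, Cajal-Retzius cells, microglia, mural cells, fibroblasts, choroid plexus and dividing cells lay lower in both KO libraries than in all WT libraries. Those of endothelial cells, red blood cells, border macrophages and oligodendrocyte precursors overlapped, and so did the inhibitory list, at 22.9 and 15.3 CPM in KO libraries, against 14.5, 23.1 and 19.6 CPM in WT libraries. The Cajal-Retzius list was present in 86.2% to 90.2% of members of each library. The 5 members with most of its UMIs held 2.84% to 5.67% of them. Of its 4 tested genes 3 were below 0 and 1 above, and 0 lay below all WT libraries. The summed radial glia list was 495 and 546 CPM in KO libraries, against 798, 873 and 606 CPM in WT libraries, and was present in 91.8% to 94.8% of members of each library. It lay lower in both KO libraries also in Pou3f1-positive cells, in microglia, at 791 and 854 CPM in KO libraries, against 1310, 2018 and 3926 CPM in WT libraries, and in endothelial cells, at 1396 and 1512 against 2211, 3564 and 2032 CPM. The microglia of KO replicate 3 were only 17 cells. The radial glia list overlapped in the other excitatory cells, at 3349 and 1309 CPM in KO libraries, against 4270, 5739 and 1765 CPM in WT libraries, and in the Prox1-positive and Eomes-positive cells. The part of this RNA in the results on Slc1a3, Fabp7, Hes5 and Ptn was not tested.

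Beside Trem2, the 7 genes with the smallest p among those lower in KO members were Ube2c, Tm4sf1, Mki67, Ccl3, Selenop, Hmgb2 and Ccl2, and none passed. Of the dividing-cell list 9 of 9 tested genes were below 0, each below all WT libraries, at a median of -1.21, beside 51.1% of all genes below 0 and 12.8% below all WT libraries. Mki67, a marker of cycling cells, was at 3.54 and 4.28 CPM in KO libraries, against 9.29, 10.8 and 8.92 CPM in WT libraries (-1.27 on the log2 scale, SE 0.218, edgeR adjusted p = 0.427). Ube2c and Hmgb2 were at -1.40 and -0.68. The chemokines Ccl3 and Ccl2 were at -3.36 and -2.82, the endothelial gene Tm4sf1 at -2.05 and Selenop at -2.04. All 11 tested microglial genes, Trem2 among them, were below 0 (median -1.78), as were 6 of 6 endothelial, 5 of 5 mural and 4 of 4 fibroblast genes. The summed microglial list was 33.3 and 7.49 CPM in KO libraries, against 67.1, 89.4 and 44.0 CPM in WT libraries, and 0 of its 12 genes was at 0 in every library. The summed endothelial list overlapped, at 2.98 and 72.5 CPM in KO libraries, against 50.3, 67.8 and 68.5 CPM in WT libraries.

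How far these UMIs sat in few cells differed between lists and libraries. The 5 members with the most microglial UMIs held 80.7% and 27.3% of them in KO libraries, against 84.5%, 93.7% and 78.5% in WT libraries. For endothelial UMIs the shares were 18.8% and 95.4% in KO libraries, against 92.9%, 94.5% and 88.3% in WT libraries. For the dividing list they were 30.8% and 61.2% in KO libraries, against 66.9%, 67.6% and 63.9% in WT libraries, and for radial glia 18.5% to 37.5% over all libraries. Only 85 members (2.15%) held 5 or more UMIs of 1 of 9 lists of other cell types or dividing cells, 1.15% and 1.79% in KO libraries, against 3.55%, 2.15% and 2.34% in WT libraries. Without these cells, a step chosen after seeing the data, the summed dividing list was 19.9 and 18.4 CPM in KO libraries, against 22.8, 19.0 and 25.9 CPM in WT libraries. The cells were removed by their UMIs of this and the other 8 lists, so the levels left in those lists follow from the step and bear on no comparison. The radial glia list, which was not used to remove cells, did not overlap, at 421 and 471 CPM in KO libraries, against 620, 655 and 584 CPM in WT libraries, and Slc1a3 was at -1.13. Ptn was at -0.65 and Mrps10 at 0.70, and 0 of 13122 genes passed.

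**Figure D5:**
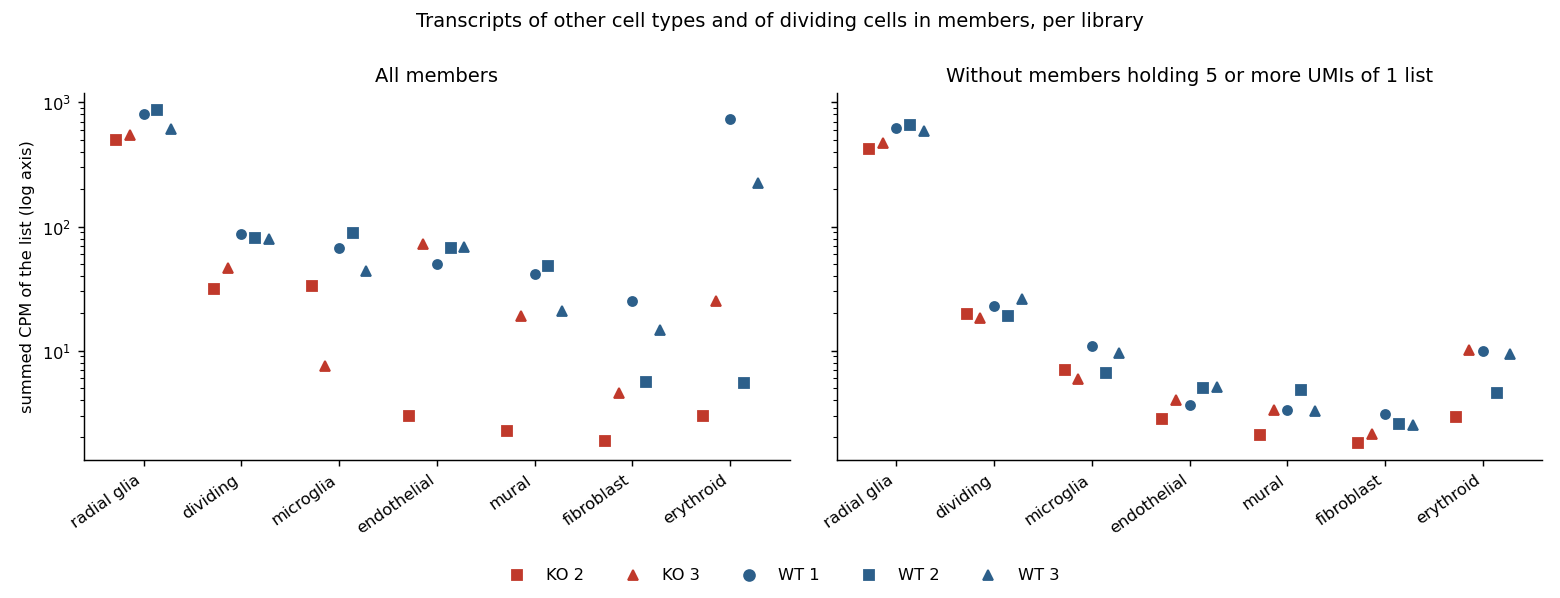
Summed CPM (log axis) of 7 marker lists of other cell types and dividing cells in members of each library (red KO, blue WT), for all members (left) and without the 85 members that held 5 or more UMIs of 1 of 9 lists (right). On the left the dividing list is at 31.1 and 46.1 CPM in KO and 78.6 to 86.6 CPM in WT libraries, and the lists used to remove cells fall on the right by construction, while the radial glia list, which was not used, separates KO from WT libraries in both.

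Whether the genotype effect in members differed from that in the other excitatory cells was tested on 10 sums, blocked by library. With edgeR 0 of 13997 genes (0.0%) passed and 798 had an unadjusted p below 0.05, while DESeq2 called 8. Without KO replicate 3 edgeR called 39 genes, without WT replicate 2 it called 16, and without doublets 69. In the other excitatory cells themselves 0 of 13169 genes passed with edgeR, and 471 had an unadjusted p below 0.05. Meg3 was at 0.34 in members and -0.04 in the other excitatory cells, a difference of 0.38 (SE 0.066, edgeR adjusted p = 0.255). Selenop, Col4a2, Kif11 and Tgfb1 had differences of -2.78, -1.63, -2.21 and -2.53, with the effect below 0 in members and above 0 in the other cells. Kif11 is a mitotic motor, Col4a2 a collagen of vessel walls, and Selenop and Tgfb1 are abundant in macrophages.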

How the data were processed

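Single-cell RNA-seq libraries of the hippocampus of 5 pools of P1 mice (2 Trem2 KO, 3 WT) were used. The deposited values are raw UMI counts per gene and barcode, made by the authors with Cell Ranger (6.1 per the submitters' processing notes, 6.1.1 per the file headers) on mm10; no source used here gives the annotation release, and gene positions were taken from GENCODE annotation of the same build.

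Barcodes under 500 genes or 1000 UMIs, or with over 15% of UMIs from mitochondrial genes, were dropped. Counts were summed per library and cell set and compared by the quasi-likelihood test of edgeR 4.0.16 after filterByExpr and TMM scaling (3 residual degrees of freedom, Benjamini-Hochberg threshold 0.05), with DESeq2 1.42.0 as an alternative. Shares and medians were compared by two-sided exact permutation over 10 assignments of libraries. Members and other excitatory cells were compared by CPM ratios (prior count 0.5) without a test, for genes of at least 20 CPM in either set. All kept cells were clustered without the 10 genes of the rule (scanpy 1.11.5, leidenalg 0.10.2, 2000 variable genes, 30 principal components, 15 neighbours, resolution 1). Doublets stayed in the main results; as an alternative the cells with the highest Scrublet scores were removed, 0.8% per 1000 barcodes. The edgeR steps were tested on simulated data.

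Named for KO against WT were Trem2, the 5 label markers, up to 8 genes per direction by smallest p with a mean of at least 20 UMIs per library (no gene passed the threshold), and up to 4 genes of each list by smallest p; for members against other cells, 25 higher and 15 lower genes and up to 4 of each list per direction. The members, gene lists and tests were chosen with earlier results of these data known. Alternatives were other size factors, DESeq2, no filter on low counts, a replicate block, male pups as covariate, a mitochondrial limit of 5%, removal of doublets, a stricter rule, thinning, another clustering resolution and leaving out each library. Some withheld genes are not reported here.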

Additional observations from a re-analysis of the deposited data

How the results depend on the processing

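The count of genes passing between KO and WT members, 0 with edgeR, was also 0 with RLE size factors, a 5% mitochondrial limit, at least 2 UMIs each of Sema3c and Cntn2, and members thinned to 4000 UMIs. It was 0 in 3 fits chosen after seeing the data, without the 85 members holding other-type UMIs and within cluster 3 or cluster 1 alone. It was 14 with DESeq2, 1 (Trem2) with no filter on low counts, 4 with male pups as covariate, 19 without doublets, and 0 to 48 when 1 library was left out, the 48 without KO replicate 3. With the replicate number as a block it was 46, 7 higher and 39 lower in KO; the labels do not say that numbers pair libraries, only 2 numbers are shared, and the difference between replicates 2 and 3 correlated across 11855 genes between KO and WT at r = 0.467. The count for the difference between members and other excitatory cells, 0, was 8 with DESeq2, 319 with no filter, 69 without doublets and 0 to 39 with 1 library left out.

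The members' share of excitatory cells (KO minus WT -0.18 percentage points) was 0.0318 at a 5% mitochondrial limit, 0.0372 without doublets, 0.246 under the stricter rule and -3.24 to 2.87 with 1 library left out. After thinning both sets, 0 genes were 2-fold higher and 130 lower in members, and these log2 ratios to the other excitatory cells turned below 0: Tubb3 -0.0098, Camk2b -0.25, Rbfox3 -0.038, Sema3e -0.070 and Cadm2 -0.19. At resolution 2 the largest cluster held 26.0% of members. Log2 fold changes that crossed 0 between KO and WT were Cntn2 with the block (0.0034), Ube2c and Cenpf in cluster 3 (0.074 and 0.057), Mki67, of a list used to choose the other-type members, without them (0.56) and Igfbpl1 at the 5% limit (0.020). With 1 library left out Grp ranged between -0.0024 and 0.22 and Cntn2, a gene of the rule, between -0.17 and 0.0038. Of 1172 values of single genes under an alternative, 1039 stayed the same. For KO against WT this means the same direction and side of the threshold. For ratios of members to other excitatory cells, which have no threshold, it means the same direction and a shift below their SD over libraries. A further 57 values newly passed the threshold and 12 reversed. The remaining 64 were ratios after thinning that kept their direction but shifted by at least that SD. The causes were not tested. Trem2 was below the count filter, and so has no value, without doublets, after thinning, without the other-type members and within cluster 3 or 1. Only 2 KO libraries and 3 residual degrees of freedom limit the precision, and intervals cover counting error only.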

Other observations

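Mrps10 lies on the chromosome of Trem2, with a gap of 964984 bp between the genes. Among 41 tested genes within 2 Mb of Trem2, a window chosen after the values were seen, 8 had an unadjusted edgeR p below 0.05 in members, beside 4.76% of all tested genes. Of the 41 genes 19 were above 0 and 22 below, and none passed adjustment. Beside Mrps10, Rrp36 was at a log2 fold change of 0.36 (SE 0.148), Foxp4 at 0.31, Mrpl2 at 0.30 and Zfp318 at 0.25, and Mea1 was at -0.39 (SE 0.115), Mocs1 at -1.17 and Crip3 at -2.02.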
